A study of Homo sapiens with 6 samples.

Results

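The genes described here are 7 cadherins and 3 catenins, the transmembrane and cytoplasmic parts of the adherens junction. They were chosen by gene name from a table of 58735 genes, with the fold changes of the contrast described here already known: CDH1, CDH2, CDH3, CDH4, CDH6, CDH11, CDH13, CTNNA1, CTNNB1 and CTNND1. All 10 names were found, each in 1 row. RNA was sequenced after capture of polyadenylated transcripts from 6 samples of KYSE410, a human line of oesophageal squamous carcinoma cells. The 3 control samples are titled NC, have a wild type genotype and carry no treatment in the labels. The 3 siADAR1 samples are the knockdown derivatives of the same line. ADAR1 edits double-stranded RNA by turning adenosine into inosine. Both groups were grown in RPMI medium with fetal bovine serum and share 1 batch value. The labels do not say whether the controls received an siRNA, so delivery or off-target effects of an siRNA and loss of ADAR1 itself cannot be told apart. No label says that samples came from separate cultures, so p-values reflect the scatter among these 6 samples alone, and that scatter may be technical.

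Classical cadherins hold neighbouring epithelial cells together by calcium-dependent binding of their outer domains. Their cytoplasmic tails bind β-catenin (CTNNB1) and, nearer the membrane, p120-catenin (CTNND1), and β-catenin binds α-catenin (CTNNA1), which couples the complex to actin filaments. β-catenin outside the junction is either degraded or enters the nucleus, where it acts with TCF and LEF factors in Wnt signalling. E-cadherin (CDH1) and P-cadherin (CDH3) are the cadherins of squamous epithelium, and N-cadherin (CDH2) is better known from neural and mesenchymal cells. R-cadherin (CDH4), K-cadherin (CDH6) and OB-cadherin (CDH11) are found mainly in neural, renal and mesenchymal tissues. T-cadherin (CDH13) is held by a lipid anchor and lacks the catenin-binding tail, so it is usually set apart from the classical cadherins.

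Total counts ranged from 15175619 to 17329443 reads per library. ADAR, the targeted gene, fell from 443.6 ± 12.1 to 88.7 ± 9.72 CPM (counts scaled to library size; SD, n = 3), with no overlap and an adjusted p of 1.06e-08 in the edgeR quasi-likelihood test. Expression differed widely, and 51.0% of the 15294 tested genes passed an adjusted p of 0.05, 26.0% higher and 25.0% lower in siADAR1. Of 10 markers of squamous or simple epithelium, 9 had enough counts to be tested. KRT8, KRT17, KRT18, EPCAM and TP63 were well expressed. The other markers were lower in control, with KRT5 at 34.0, KRT6A at 26.3, KRT15 at 4.35 and SOX2 at 1.24 CPM. The basal keratin KRT14 had at most 2 counts in any library. TP63 and KRT17 rose, and KRT5 and KRT6A fell, KRT6A by 2.24 on the log2 scale (adjusted p = 2.60e-06 in edgeR). Markers of other cell types were at or near 0 with few exceptions. The 6 blood cell markers reached at most 1 count in any library, and 4 of them had none. The 5 endothelial markers summed to between 0.677 and 2.15 CPM in any library. The 7 fibroblast markers summed to 40.4 to 59.5 CPM in control and 72.3 to 85.0 CPM in siADAR1, nearly all of it from LUM and COL1A1, while DCN had no count. The part of these 2 genes in the results below was not tested.

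The order of levels was taken from the deposited FPKM (fragments scaled to gene length and library size), which allow comparison between genes. In control, CDH1 was the most abundant, at 92.2 ± 5.30 FPKM (SD, n = 3). CTNNB1 followed at 70.1 ± 1.81, CTNNA1 at 48.2 ± 0.162 and CTNND1 at 44.1 ± 2.01 FPKM. CDH2 was at 24.6 ± 3.41 and CDH3 at 20.1 ± 2.55 FPKM, and the library values of this pair overlapped in control. All other neighbours in the order down to CDH6, at 2.95 ± 0.303 FPKM, were separated in every control library. In siADAR1 the same order held, but 2 gaps had closed. CDH1, at 72.4 ± 10.8 FPKM, overlapped with CTNNB1 at 69.2 ± 2.15, and CTNND1, at 30.0 ± 2.56, overlapped with CDH2 at 29.7 ± 2.32. CDH2 and CDH3, at 21.0 ± 4.07 FPKM, no longer overlapped. CDH6 was at 0.457 ± 0.0846 FPKM in siADAR1.

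**Figure D1:**
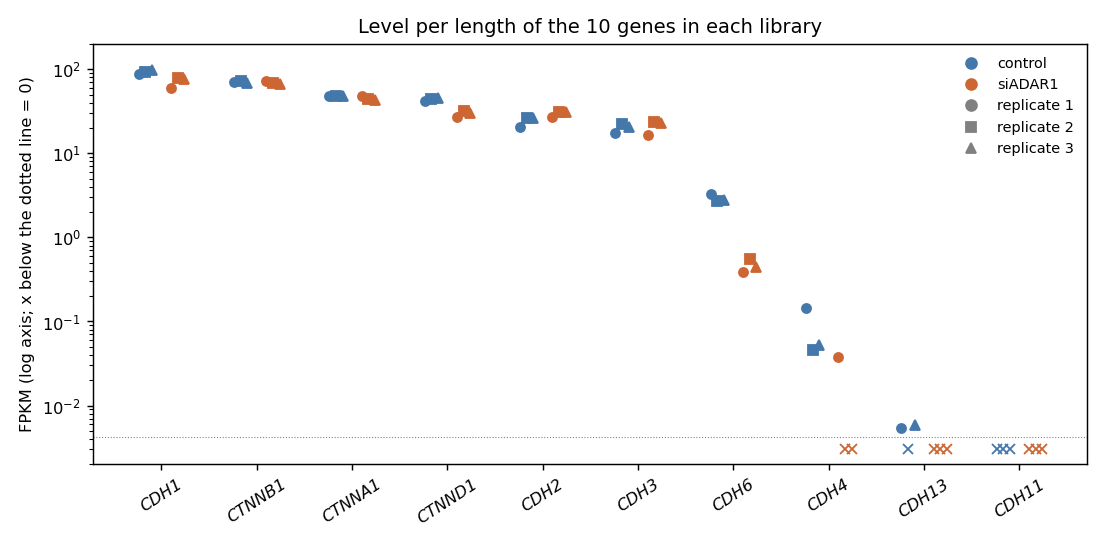
Deposited FPKM of the 10 genes in each library on a log axis, with control in blue and siADAR1 in orange and one symbol per replicate number. Crosses below the dotted line are values of 0. The 6 genes at the left lie above 10 FPKM in all 6 libraries, CDH6 lies apart from them and separates the groups, and CDH4, CDH13 and CDH11 lie near or at 0.

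The remaining 3 cadherins did not pass the filter on low counts and were not in the fit described below. CDH4 had 18, 5 and 6 counts in the control libraries, in order of replicate number, against 5, 0 and 0 for siADAR1, so most of its control counts came from 1 library. In the alternative fit with no filter, CDH4 was called lower, while with FPKM and no filter it was not. CDH13 had 1, 0 and 1 counts in control and none in siADAR1. CDH11 had no count in any library, which allows up to 3 counts per library, or 0.0125 to 0.0150 FPKM. These limits cover counting error only. No fold change is given for any of the 3.

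Promoter windows from RefSeq (GRCh38.p14), from 250 bases before to 50 bases after an annotated start, were found for 4 of the 10 genes, CDH2, CDH4, CTNNA1 and CTNNB1, in 9 windows. Windows of CDH1, CDH3, CDH6, CDH11, CDH13 and CTNND1 were not analysed here. The hexamers CACCTG and CAGGTG, each the reverse complement of the other and hence covering both strands, are the letters that the SNAI and ZEB repressors are known to bind. They are shown because SNAI2 and ZEB1 RNA differed strongly between the groups. At least 1 of the hexamers was in 20.6% of all 35116 windows of 300 bases, and in 1 of the 9 windows of these genes. The bases before the start are printed for the cadherin called higher in siADAR1 (CDH2, chr18:28177131-28177380, minus strand), for the catenin with the smallest difference (CTNNB1, chr3:41199255-41199504, plus strand) and for the gene with a match (CDH4, chr20:61499171-61499420, plus strand). Capitals mark the hexamer, whose first base lies 16 bases before the start in CDH4. The printed windows of CDH2, CDH4 and CTNNB1 belong to starts inside the annotated genes, whose first bases are at 28177446, 61252426 and 41194741. For none of these genes was a window at the outermost start found.
CDH2: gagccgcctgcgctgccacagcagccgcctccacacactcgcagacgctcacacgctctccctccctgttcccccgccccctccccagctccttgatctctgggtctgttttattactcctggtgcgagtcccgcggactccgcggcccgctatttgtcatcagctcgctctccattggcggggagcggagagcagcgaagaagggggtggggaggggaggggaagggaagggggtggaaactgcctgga
CTNNB1: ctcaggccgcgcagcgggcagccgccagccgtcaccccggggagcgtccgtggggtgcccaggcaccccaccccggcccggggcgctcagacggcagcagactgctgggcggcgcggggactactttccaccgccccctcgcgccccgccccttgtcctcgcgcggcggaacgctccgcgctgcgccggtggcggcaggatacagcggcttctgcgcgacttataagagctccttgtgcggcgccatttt
CDH4: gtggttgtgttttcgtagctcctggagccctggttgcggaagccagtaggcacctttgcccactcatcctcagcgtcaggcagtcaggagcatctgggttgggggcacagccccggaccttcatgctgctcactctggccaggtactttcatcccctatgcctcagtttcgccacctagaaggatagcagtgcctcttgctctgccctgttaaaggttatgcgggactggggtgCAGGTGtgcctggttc
No other window of these 4 genes held either hexamer, which says only that these letters are not in these windows.

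Levels of 1 gene across libraries are given below as CPM on library sizes scaled by trimmed mean of M-values. The other 7 genes, 4 cadherins and 3 catenins, passed the filter on low counts, each with at least 85 counts in every library. The genes were proposed with results of the same contrast known, so their differences are given as a description and no p is printed for them. In the fit across all genes, 1 of the 7 was called higher (background 26.0%) and 3 were called lower (background 25.0%). The groups did not overlap for 4 of the 7, against 60.3% of all tested genes. The median log2 fold change of the 7 was -0.10, and that of all tested genes was 0.0047.

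Among the cadherins, CDH6 had by far the largest difference. Its level was 41.3, 34.3 and 35.1 CPM in the control libraries, in order of replicate number, against 4.79, 6.88 and 5.53 CPM in the siADAR1 libraries. The lowest control library thus lay well above the highest siADAR1 library. The means were 36.9 ± 3.83 and 5.73 ± 1.06 CPM (SD, n = 3), a mean 6.43-fold lower in siADAR1, with a log2 fold change of -2.69 ± 0.16 (SE). In bulk samples, fewer cells with CDH6 RNA and less CDH6 RNA per cell cannot be told apart. These values rest on 1726 control and 280 siADAR1 counts in all. CDH6 was the 1 member called at 2-fold or more, a size reached by 14.8% of tested genes. The call was kept under all 17 alternatives, with log2 fold changes from -2.84 to -1.44, the smallest with a pseudocount of 1 FPKM, which shrinks the change of a low gene. CDH6 lies on chromosome 5 (31193750 to 31329146, GRCh38, plus strand).

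CDH1, which encodes E-cadherin, was moderately lower. CDH1 had 544, 573 and 609 CPM in control and 375, 497 and 487 CPM in siADAR1, so that the groups did not overlap and siADAR1 replicate 1 was the lowest library. The mean went from 575 ± 32.6 to 453 ± 67.6 CPM (SD, n = 3), or 78.8% of control, with a log2 fold change of -0.34 ± 0.10 (SE). The call was lost with library totals alone (-0.23), without control replicate 3 (-0.31) and with FPKM and no filter (-0.35). Without siADAR1 replicate 1 the log2 fold change was -0.23, and without both libraries numbered 1, an alternative added after seeing the data, it was -0.27, called in both cases. CDH1 remained the most abundant cadherin in every library.

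CDH3, the gene of P-cadherin, lies 14608 bases upstream of CDH1 on the same strand of chromosome 16 (CDH3 68636189 to 68722616, CDH1 68737225 to 68835548). CDH3 had 109, 141 and 129 CPM in control and 103, 149 and 147 CPM in siADAR1, and the control range lay inside the siADAR1 range. In both groups replicate 1 was the lowest library. The log2 fold change was 0.07 ± 0.14 (SE), not called, and it turned negative without control replicate 1 (-0.035) or without siADAR1 replicate 2 (-0.020).

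CDH2, the gene of N-cadherin, was the member called higher. It had 104, 133 and 133 CPM in control and 135, 154 and 157 CPM in siADAR1. The groups did not overlap, but siADAR1 replicate 1 lay just above the 2 highest control libraries. The mean went from 123 ± 16.9 to 149 ± 11.8 CPM (SD, n = 3), or 1.21-fold, with a log2 fold change of 0.28 ± 0.11 (SE). This call was near the threshold. It was lost in DESeq2, in all 3 fits on FPKM and without control replicate 1, 2 or 3 or siADAR1 replicate 2 or 3, with log2 fold changes of 0.15 (without control replicate 1) to 0.33 (without control replicate 2). With library totals alone it was 0.39.

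The catenins differed from one another. CTNND1, whose product p120-catenin binds the cadherin tail near the membrane and keeps cadherins from being internalised, had 373, 396 and 407 CPM in control and 243, 288 and 272 CPM in siADAR1. Every siADAR1 library lay below every control library. The mean went from 392 ± 17.5 to 268 ± 22.8 CPM (SD, n = 3), or 68.2% of control, with a log2 fold change of -0.55 ± 0.09 (SE), called under all alternatives.

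CTNNB1, the gene of β-catenin, was nearly level, with 848, 864 and 821 CPM in control and 864, 828 and 816 CPM in siADAR1. Its log2 fold change was -0.01 ± 0.07 (SE). CTNNA1, the gene of α-catenin, had 429, 431 and 429 CPM in control and 430.1, 395 and 382 CPM in siADAR1, so that 1 siADAR1 library sat among the controls. Its log2 fold change was -0.10 ± 0.08 (SE). Neither was called, but the sign of both depended on the scaling, at 0.10 for CTNNB1 and 0.02 for CTNNA1 with library totals alone, a setting that moves the median of all genes up by 0.12. CTNNB1 also turned to 0.01 without siADAR1 replicate 3. CTNNA1 was called lower, at -0.15, when both libraries numbered 1 were left out.

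**Figure D2:**
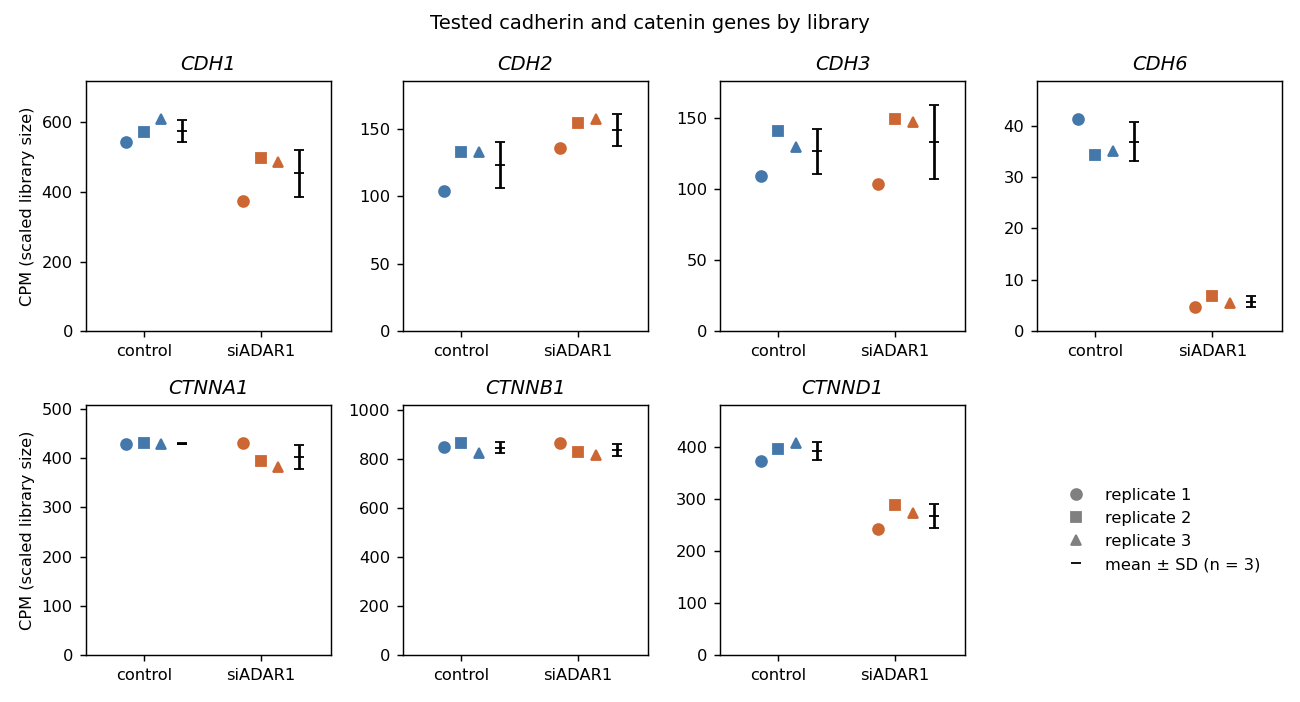
CPM of the 7 tested genes in each library, with control in blue, siADAR1 in orange, one symbol per replicate number and the mean ± SD of 3 libraries beside the points. Axes start at 0. CDH6 and CTNND1 separate the groups widely, CDH1 and CDH2 narrowly, and CDH3, CTNNA1 and CTNNB1 overlap.

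The libraries with replicate number 1 ordered the members in a recurring way. In siADAR1, replicate 1 was the lowest library for 5 of the 7 genes (CDH1, CDH2, CDH3, CDH6 and CTNND1) and the highest for the other 2, CTNNA1 and CTNNB1. In control, replicate 1 was the lowest for 5 genes and the highest for CDH6. For CTNNA1, 1 of the 5, this was a near tie, at 429.297 CPM against 429.323 CPM in replicate 3. The spread within a group was smallest for CTNNA1 in control, with a coefficient of variation of 0.253%, and largest for CDH3 in siADAR1, at 19.4%. Each spread rests on 3 libraries and is itself uncertain.

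Because 3 members were called lower and 1, CDH2, was called higher near the threshold, proportions were compared within each library, where a library's scaling cancels. The ratio of CDH1 to CDH2 in FPKM was 4.21, 3.46 and 3.67 in control and 2.22, 2.58 and 2.48 in siADAR1. No siADAR1 library reached a control library. The mean log2 ratio went from 1.91 ± 0.145 to 1.28 ± 0.113 (SD, n = 3), a difference of -0.64. CDH1 to CDH3 was 5.03, 4.11 and 4.76 in control against 3.67, 3.37 and 3.35 in siADAR1. Of the FPKM summed over the 7 cadherins, CDH1 made up 66.0 ± 1.88% in control and 58.5 ± 0.665% in siADAR1. CDH2 went from 17.5 ± 1.27% to 24.2 ± 1.65%, CDH3 from 14.3 ± 1.11% to 16.9 ± 1.02% and CDH6 from 2.13 ± 0.381% to 0.370 ± 0.0380%. The sum itself was 139.9 ± 10.1 FPKM in control and 124 ± 17.2 FPKM in siADAR1, and these overlapped. E-cadherin RNA thus held the larger share throughout.

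Among the catenins, CTNND1 to CTNNB1 was 0.596, 0.621 and 0.672 in control and 0.381, 0.471 and 0.452 in siADAR1, a difference of -0.54 in mean log2 ratio, again with no overlap. CTNNA1 to CTNNB1 was closer, at 0.684, 0.674 and 0.706 in control and 0.672, 0.644 and 0.632 in siADAR1, with a very small gap. The groups thus did not overlap for any of the ratios compared. These are not separate results, since each ratio contains CDH1 or CTNNB1 and the members were chosen with the fold changes known. Of all tested genes taken singly, 60.3% did not overlap either, and no such share was computed for ratios. CDH1 RNA exceeded CTNNB1 RNA per length in all 3 control libraries, by 1.24, 1.28 and 1.43 times. In siADAR1 the ratio was 0.838, 1.16 and 1.15, with replicate 1 the single library below 1. The difference in mean log2 ratio was -0.34, and -0.19 without siADAR1 replicate 1.

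**Figure D3:**
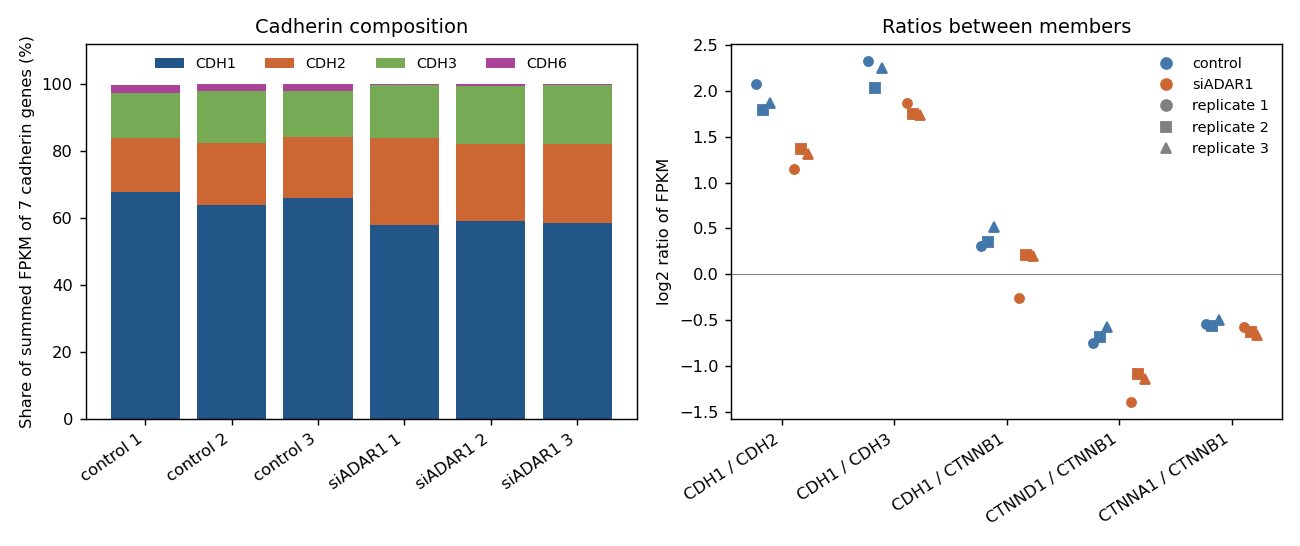
Left, share of the FPKM summed over 7 cadherin genes held by CDH1, CDH2, CDH3 and CDH6 in each library (CDH4, CDH11 and CDH13 are too small to draw). Right, log2 ratios of FPKM between members, with control in blue and siADAR1 in orange. The CDH1 share is 64.0 to 67.7% in control and 57.8 to 59.1% in siADAR1. Every ratio contains CDH1 or CTNNB1 and separates the groups, CTNNA1 to CTNNB1 by a very small gap.

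The lists described from here on were chosen with earlier results of these data known, and genes were named mainly by smallest p. Their adjusted p-values are therefore descriptive. Counts of calls compare with 26.0% of all tested genes higher and 25.0% lower. Of the 12 other classical cadherins listed, 4 were tested. CDH8 (log2 fold change 1.31 ± 0.15, SE, adjusted p = 1.44e-05 in edgeR), a cadherin of neural circuits, rose from 6.77 ± 0.489 to 16.7 ± 0.670 CPM (SD, n = 3). CDH19 rose as well, but 1 gene of the list was called higher without control replicate 1 or without siADAR1 replicate 3, and CDH8 kept its call in both. CDH24 fell from 42.2 ± 5.42 to 27.2 ± 0.723 CPM, with a log2 fold change of -0.63 ± 0.12 and an adjusted p of 6.44e-04 in edgeR. CDH12 did not pass. Per length, CDH24, at 11.1 FPKM in control, was more abundant than CDH6.

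Of 10 other catenins and plakophilins, 7 were tested, 3 rose and none fell. PKP2, a plakophilin of the desmosomal plaque, rose from 82.8 ± 12.0 to 138 ± 6.67 CPM (SD, n = 3; log2 fold change 0.74 ± 0.11, SE, adjusted p = 1.02e-04 in edgeR). CTNNAL1, a relative of α-catenin, rose by 0.50 ± 0.11 on the log2 scale, with an adjusted p of 0.00238. ARVCF, a close relative of p120-catenin, also rose, from 32.2 ± 7.16 to 60.4 ± 15.9 CPM, and was singled out after its values were seen. JUP, or plakoglobin, which can take the place of β-catenin on the cadherin tail, was at 896 ± 52.8 CPM in control and 800.4 ± 2.33 CPM in siADAR1 and did not pass (adjusted p = 0.0845 in edgeR). At an unadjusted p under 0.05, 2 genes of the list were lower, JUP and PKP3, and 0 passed in DESeq2. Without control replicate 3 or siADAR1 replicate 1, PKP3 was called lower, at -0.29 and -0.28.

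Desmosomes, the second cadherin-based junction of squamous cells, had 8 of 10 listed genes tested. Of these, 4 rose and none fell. At an unadjusted p under 0.05 and in DESeq2, 0 fell, but 2 were called lower without control replicate 1, also when both libraries numbered 1 were left out. DSG3, a desmoglein of stratified epithelium, rose from 22.5 ± 5.19 to 65.2 ± 4.12 CPM (SD, n = 3), with a log2 fold change of 1.54 ± 0.15 (SE) and an adjusted p of 3.84e-06 in edgeR. PPL, the plaque protein periplakin, rose by 0.90 ± 0.10 (adjusted p = 8.48e-06). EVPL and DSC1 were the other genes that rose. DSC1 was low, with 6, 6 and 4 counts in the control libraries against 24, 20 and 30 in siADAR1. In the fits on FPKM with a minimum mean of 0.5, 3 genes of the list rose. DSG2, DSP, DSC2 and DSC3 did not pass, although DSG2 and DSP, at 338 and 179 CPM in control, were well expressed.

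Of 15 genes for actin linkers, nectins and other partners at the junction, 7 rose and 3 fell. LIMA1, which binds actin at the cadherin-catenin complex, rose from 233 ± 30.2 to 482 ± 50.5 CPM (SD, n = 3; adjusted p = 5.72e-06 in edgeR). PLEKHA7, a partner of p120-catenin, rose from 146 ± 11.1 to 256 ± 6.82 CPM (adjusted p = 6.90e-06), the opposite direction to CTNND1. The 3 that fell were ACTN1, ACTN4 and NECTIN1. Of 14 genes for proteases, phosphatases and other factors of cadherin cleavage and turnover, 4 rose, 2 fell and 8 did not pass. PTPN14 and PTPRM, both tyrosine phosphatases, rose by 0.88 ± 0.10 and 0.51 ± 0.12 (SE) on the log2 scale (adjusted p = 8.94e-06 and 0.00266 in edgeR), and CBLL1, an E-cadherin ubiquitin ligase, and PTPRJ rose too. The 2 that fell were PSEN2, a subunit of γ-secretase, and ADAM10, the protease that sheds E-cadherin, which went from 195 ± 43.8 to 107 ± 23.2 CPM. ADAM10 was named after its values were seen.

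Genes for repressors of CDH1 and other factors of the epithelial-mesenchymal transition had 9 of 13 members tested, of which 4 rose, 1 fell and 4 did not pass. SNAI2, the repressor Slug, had 76.1, 96.9 and 86.4 CPM in control and 574, 499 and 502 CPM in siADAR1, with a log2 fold change of 2.60 ± 0.10 (SE) and an adjusted p of 1.06e-08 in edgeR. ZEB1 rose from 1.55 ± 0.193 to 4.84 ± 0.891 CPM (SD, n = 3; adjusted p = 2.55e-04), ZEB2 from 0.625 ± 0.508 to 3.05 ± 0.505 CPM (adjusted p = 0.00170) and TWIST1 from 11.4 ± 0.977 to 15.9 ± 0.748 CPM (adjusted p = 0.0129). ZEB2 had 19, 2 and 9 counts in the control libraries, and its log2 fold change of 2.25 ± 0.48 (SE) ranged from 1.79 without control replicate 2 to 3.03 without control replicate 1. With a pseudocount of 1 FPKM and no filter, ZEB1 was at 0.40 and ZEB2 at 0.13, both called. The TWIST1 call was lost without control replicate 3 (0.40) and without siADAR1 replicate 2 (0.44). SNAI1, the repressor Snail, was at 3.93 ± 0.135 and 4.99 ± 0.871 CPM and did not pass. TCF4 was the gene that fell. In the fits on FPKM with a minimum mean of 0.5, which drop the lowest genes, 2 rose and 0 fell. The mean of SNAI2 was 6.07-fold that of control. The CDH1 promoter was not analysed here.

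Most, but not all, of the listed factors that maintain the epithelial state rose too, where 26.0% of all tested genes rose. ESRP1 (151 ± 11.4 and 150 ± 5.38 CPM in control and siADAR1) and EHF (195 ± 37.9 and 162 ± 11.1 CPM) did not pass. Of those that rose, GRHL3 and OVOL2 were low in control, at 2.50 and 4.02 CPM. Of 12 tested, 9 rose (GRHL1, GRHL3, OVOL1, OVOL2, ESRP2, ELF3, KLF4, KLF5 and TP63), 3 did not pass and none fell, also with 0 lower at an unadjusted p under 0.05 and in DESeq2, but 1 fell without control replicate 1. GRHL1, a grainyhead factor of epidermal differentiation, rose from 11.9 ± 1.13 to 42.0 ± 2.02 CPM (SD, n = 3; adjusted p = 2.89e-07 in edgeR). KLF4, a factor of squamous differentiation, rose from 29.4 ± 0.721 to 141 ± 33.6 CPM (adjusted p = 3.26e-07). GRHL2, a known activator of CDH1, was at 162 ± 21.0 and 155 ± 15.5 CPM and did not pass, with a log2 fold change of -0.06 ± 0.11 (SE) that was 0.05 with library totals alone, 0.0017 without control replicate 3 and 0.018 without siADAR1 replicate 1. Factors of both the mesenchymal and the epithelial list were therefore higher in the same libraries.

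**Figure D4:**
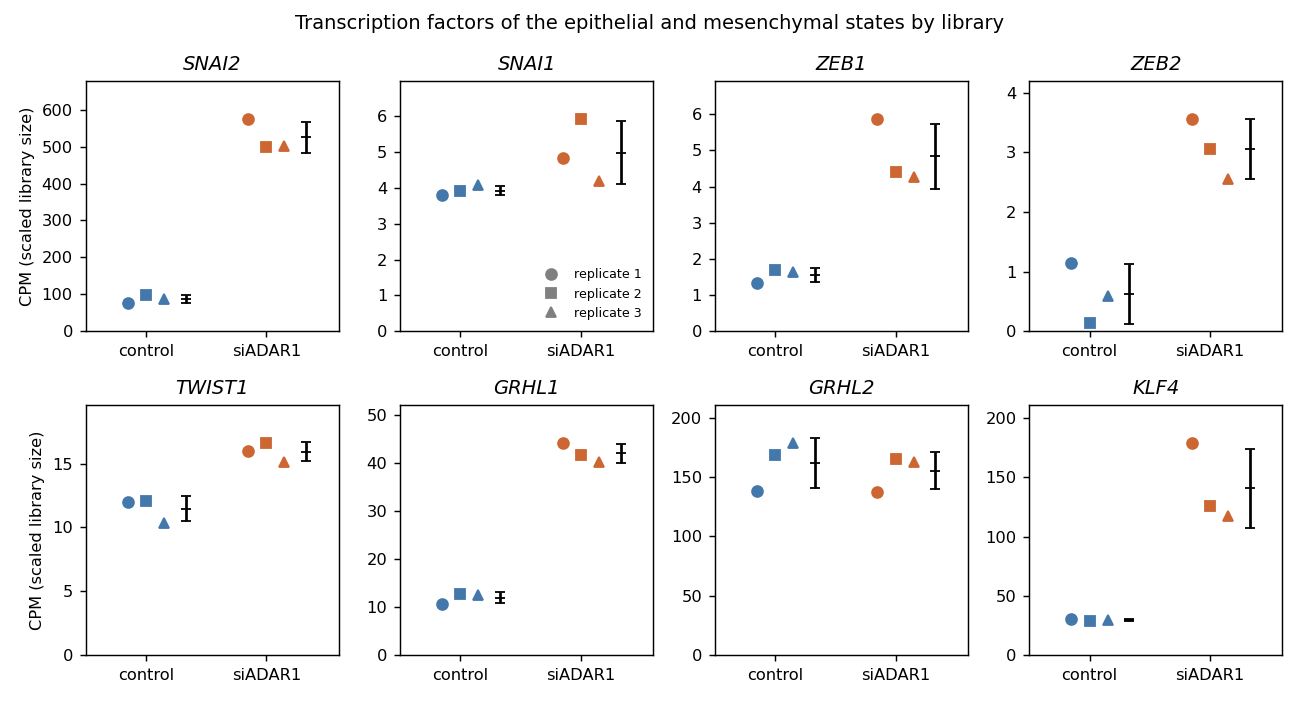
CPM of 5 factors of the epithelial-mesenchymal transition (SNAI2, SNAI1, ZEB1, ZEB2, TWIST1) and 3 epithelial factors (GRHL1, GRHL2, KLF4) in each library, control in blue and siADAR1 in orange, with the mean ± SD of 3 libraries. Axes start at 0. SNAI2, ZEB1, ZEB2, TWIST1, GRHL1 and KLF4 separate the groups, SNAI1 separates them by a small gap, and GRHL2 overlaps.

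Mesenchymal and matrix genes were mixed, with 2 of 8 tested higher and 4 lower. TGFBI, a matrix protein, fell by 1.46 ± 0.15 (SE) on the log2 scale (adjusted p = 2.50e-05 in edgeR). S100A4, MMP2 and ITGA5 fell as well. COL1A1 rose, and its call was lost when control replicate 1 or 2, or siADAR1 replicate 1, 2 or 3, was left out, after which 1 fibroblast marker, LUM, was called. VIM, the intermediate filament vimentin, was at 4.88 ± 0.431 and 7.31 ± 2.50 CPM. It did not pass (adjusted p = 0.0641) but was called higher in 5 alternatives, among them without siADAR1 replicate 1, at 0.78. Its log2 fold change of 0.58 became 0.29, not called, without siADAR1 replicate 3, the library with 158 of the 355 siADAR1 counts.

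In the 2 lists of genes that control or follow β-catenin, chosen with earlier results known, more genes fell than rose, while CTNNB1 itself was not called. Over all tested genes, 26.0% rose and 25.0% fell. Of 12 genes for the complex that marks β-catenin for degradation, 5 fell, 1 rose and 6 did not pass. GSK3A went from 85.2 ± 11.7 to 48.8 ± 1.04 CPM (SD, n = 3; adjusted p = 5.16e-05 in edgeR) and CSNK1D from 178 ± 14.7 to 120.0 ± 6.59 CPM (adjusted p = 1.90e-04), whereas GSK3B, the gene of the paralogous kinase, was the 1 that rose. AXIN1, FBXW11 and AMER1 made up the rest of the 5. Of 20 partners and targets, 14 were tested, 4 fell (CCND1, DKK1, LEF1 and ZNRF3) and 1 rose (BCL9L). CCND1, cyclin D1, fell from 1301 ± 47.8 to 349.7 ± 24.9 CPM (adjusted p = 1.47e-08). DKK1, a secreted Wnt inhibitor, fell from 144 ± 20.7 to 78.5 ± 14.1 CPM (adjusted p = 2.24e-04). AXIN2, which is in both lists and is a common readout of Wnt signalling, was at 1.38 ± 0.154 and 0.973 ± 0.366 CPM and did not pass. With library totals alone 3 genes of the degradation complex and 2 of the partners and targets rose.

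Over the 10 lists together, 102 of 130 distinct genes were tested, 37 rose and 20 fell, where 26.0% of all genes rose and 25.0% fell. With library totals alone, 43 rose and 20 fell, and over all genes the share of calls that were higher went from 50.9% to 62.9%.

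**Figure D5:**
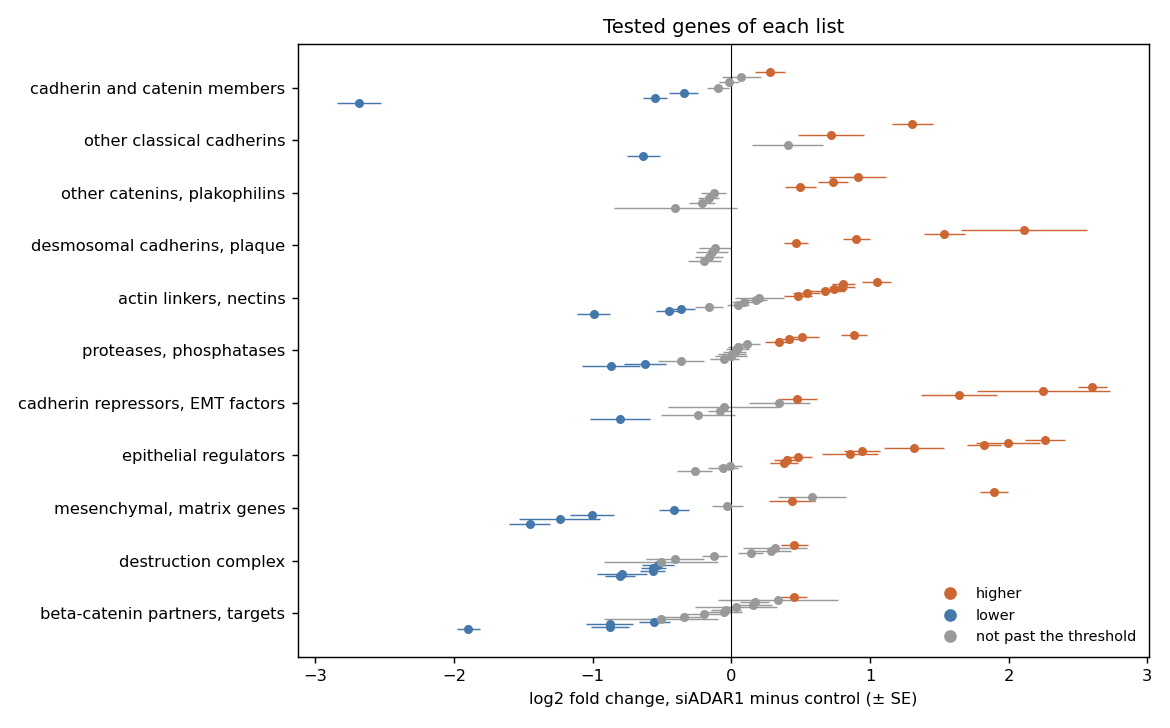
Log2 fold change, siADAR1 minus control, with SE, for the tested genes of each list, one point per gene. Orange points were called higher, blue points lower and grey points did not pass. CDH6 lies at -2.69, farther from 0 than any other gene drawn, and the epithelial regulators have 9 points called higher.

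For a member's pattern over the 6 libraries, the most similar among 9583 protein-coding genes averaging 10 CPM or more were found by the root mean square difference of centred log2 CPM. For CDH1 these were SERINC2, ZC3H12A and COL18A1, at 0.040, 0.043 and 0.043, with Pearson's r of 0.989, 0.985 and 0.982 over 6 libraries. For CDH3 they were MAP4K2, SYNJ2BP and ZMYM3, at 0.024, 0.051 and 0.056. For CTNNB1 they were KRT7, TADA3 and NUP88, at 0.017, 0.019 and 0.020. Genes within 0.1 of CDH1 numbered 251, within 0.1 of CDH3 28 and within 0.1 of CTNNB1 946. These are descriptions over the 6 libraries of both groups, so the difference between the groups enters each likeness.

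Every member overlaps other annotated genes, and since the strand was not marked and the counting tool is not given in the sources used here, shared reads are uncertain. The overlapping genes of CDH4, CDH6, CDH11 and CDH13 had no counts. CTNND1 shares 38344 bases with the read-through gene TMX2-CTNND1, which had no count in any library, and 40001 bases with AP001931.1, which had 9 counts in control and 18 in siADAR1. The 3′ part of CTNNB1 shares 13498 bases with ULK4 on the other strand, which had 335 counts in control and 719 in siADAR1, against 39374 and 41180 for CTNNB1. FTLP14, a pseudogene inside CDH1, had 67 and 52 counts. AC110015.1, antisense to CDH2, had 14 counts in control and 34 in siADAR1, against 5710 and 7298 for CDH2. Those within CDH3 and CTNNA1 had 5 or fewer counts in either group. Levels of these genes are uncertain to that extent, and the part of shared reads in their differences was not tested.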

How the data were processed

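Gene counts and FPKM of 6 KYSE410 libraries, 3 control and 3 siADAR1, were used. Counts were deposited unnormalized, as whole reads for each gene. The deposited FPKM were scaled by the authors, and the divisor was 0.966 to 0.970 of the total count in control and 1.05 to 1.06 in siADAR1. Per the submitters' processing notes, CASAVA, fastp and HISAT2 2.0.5 were used. No counting tool, build or annotation is named there, but all 58735 gene coordinates equalled those of GENCODE 29 on GRCh38. Columns were matched to samples by title, and 0 were left without a sample.

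Counts were fitted in R 4.3.3 with edgeR 4.0.16 (filterByExpr with a minimum count of 10, trimmed mean of M-values, robust quasi-likelihood F test, group as the single term, two-sided). Benjamini-Hochberg adjustment ran over all 15294 tested genes, with a threshold of 0.05. Standard errors (SE) were obtained by dividing the absolute log2 fold change by the root of F. A count of 0 allows up to 3 counts per library, or 0.169 to 0.202 CPM. Reads carry no molecular identifiers, so limits cover counting error only.

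The members and lists were chosen with earlier results of these data known. Besides the members, the rule named ADAR, the 2 genes with the smallest p in each list among those called with a mean of at least 2 CPM, and 9 fixed genes; others named were chosen after their values were seen. Alternatives were other scalings and filters, DESeq2 1.42.0, limma 3.58.1 (voom, and FPKM with pseudocounts of 0.1 and 1), a replicate block and each library left out. Pairs of libraries within a group differed beyond counting noise (chi-square per degree of freedom 4.15 to 19.9). Pairs that held a library numbered 1 were at 15.4 to 19.9. Replicates 2 and 3 were at 5.32 in control and 4.15 in siADAR1. Protein sequences were not analysed here. Of the genes so named, 1 is not reported here.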

Additional observations from a re-analysis of the deposited data

How the results depend on the processing

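The 16 alternatives listed at the outset, and 1 added after seeing the data, kept the called direction of CDH1, CDH2, CDH6 and CTNND1, and CDH6 and CTNND1 stayed called throughout. The number of members called higher was 1, and 0 in DESeq2, with FPKM and a pseudocount of 0.1 or 1 and with FPKM and no filter, and it ranged from 0 to 1 when 1 library was left out. At an unadjusted p under 0.05 in edgeR it was 1. The number called lower was 3 and ranged from 2 to 4, with CDH4 the added call when no filter was used and CTNNA1 without both libraries numbered 1. The sign of uncalled members turned for CDH3, to -0.035 without control replicate 1 and -0.020 without siADAR1 replicate 2 (range -0.035 to 0.23 with 1 library left out), for CTNNA1, to 0.023 with library totals alone, and for CTNNB1, to 0.10 with library totals alone and 0.011 without siADAR1 replicate 3 (range -0.046 to 0.011). GRHL2 turned to 0.054 with library totals alone, 0.0017 without control replicate 3 and to 0.018 when siADAR1 replicate 1 was left out (range -0.18 to 0.018). The cause was not tested, except that library totals alone shift the median of all genes by 0.12. With the replicate number as a block, 4396 genes were higher and 4186 lower against 3973 and 3831, the members counted 1 and 3 as before, and CDH1 was at -0.35 and CDH2 at 0.28. Among the other catenins the block lost the call of ARVCF (0.90) and added PKP3 (-0.21) as lower, and 1 epithelial regulator was called lower. Same-numbered libraries deviated together with correlations of 0.28, 0.092 and 0.15, and control replicate 2 correlated more with siADAR1 replicate 3, at 0.12. The numbers were not taken as pairs in the main fit, because no label says that a number marks a shared culture or day. The libraries numbered 1 still deviated together, and correlated at -0.14 to -0.21 with differently numbered libraries of the other group. No label says whether the numbers mark pairs, so this cannot be told. The differences in the 5 member ratios moved by less than the larger of the groups' SDs under each alternative run, though in 4 of them by more than the smaller SD with at least 1 alternative. CDH1 to CTNNB1 went from -0.34 to -0.19 without siADAR1 replicate 1. Depth limits CDH4, CDH11 and CDH13, which have few or no counts.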
